A study of Mus musculus with 157 samples.

Results

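The RNAs described here are 135 genes that the deposited table types as lincRNA, that is, long intergenic noncoding RNA, and that held 300 or more counts summed over sucrose fractions 4 to 16 of all gradients. They were chosen by these summed counts, with all treatments pooled, from 785 lincRNA genes and 19600 genes in all. B cells from the spleen of C57BL/6Babr mice were activated with lipopolysaccharide (LPS, 10 µg/ml) and received 1 of 3 treatments, each represented by 4 gradients. LPS cells had 48 h of LPS alone. LPS+ET cells had 48 h of LPS and then etoposide, a topoisomerase II poison that breaks DNA, at 20 µM for 4 h. LPS+ET+KU cells had 47 h of LPS, 1 h of the ATM kinase inhibitor KU55933 at 10 µM and then the same etoposide. Cytoplasmic extracts were made with cycloheximide in all groups and spread over sucrose gradients, and polyadenylated RNA of each fraction was read as 3′ end tags. Per the labels, fractions 4 to 7 held monosomes, 8 to 10 light polysomes and 11 to 16 heavy polysomes. Each gradient is named by its treatment and its library pool, LUL15 to LUL18.

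A messenger RNA in use carries several ribosomes and sediments deep in such a gradient, whereas an RNA bound by a single ribosome, or by protein alone, stays near the top. Long noncoding RNAs have no long reading frame, although some carry short ones, and many are retained in the nucleus. Others are best known as precursors: hosts of microRNAs (miRNAs), which silence messengers through a short seed, or hosts of small nucleolar RNAs (snoRNAs), which lie in the introns and guide the modification of ribosomal RNA.

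The 156 libraries of fractions 4 to 16 held 14724 to 4170688 counts each, and a gradient held 6404957 to 21449781. Equal RNA concentrations entered the libraries, so a value is the share that a gene took of a fraction, given as counts per 1000000 (CPM), and not an amount. Each transcript end gives 1 tag, so no scaling by length was applied. Monosome libraries held 13.7 to 17.6% of the counts of the LPS gradients and 28.4 to 34% of the LPS+ET+KU gradients. In LPS+ET they held 29% in pool LUL16 and 10.8 to 13% in the other pools. B cell markers summed to 6698 to 11265 CPM, while T cell markers reached 32.7 CPM and myeloid markers 167 CPM. In these bulk samples, fewer cells of a type and less RNA per cell cannot be told apart.

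The 135 lincRNAs held 692949 counts, 0.442% of all counts. The 5 most abundant, AC025794.1, Snhg5, 1810058I24Rik, Gm26745 and Epb41l4aos, held 49.2% of these, and the median gene held 913 counts. At the threshold, 2010015M23Rik with 300 counts and 4831440E17Rik with 302 were just inside, and Gm16740 and Gm26799, each with 296, were just outside. In the later GENCODE M21 annotation 83 of the 135 were still typed as lincRNA, 18 as antisense and 11 as processed transcript, and 4, Mtln, Fam169b, Platr17 and Kantr, as protein coding. The most used poly(A) site lay in an annotated exon of 60 genes, in an intron of 39 and beyond the annotated gene in 26, and 10 genes were not in M21. AC025794.1 (GRCm38, chr19:8723495-8726441, plus strand) lies on the strand of the snoRNA host gene Snhg1 at its site, so its tags cannot be told from those of Snhg1. A coding gene lay over the site on the same strand for 12 of the 135 genes and on the opposite strand for 20.

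Of the 135 genes, 9 carried RefSeq miRNA hairpins on their own strand, 15 hairpins in all with 28 mature sequences. Mir142hg (chr11:87755576-87757269, plus strand) holds miR-142a, which is abundant in blood cells, Mir155hg (chr16:84713022-84715241, plus strand) holds miR-155, which activated B cells induce, and Mir17hg (chr14:115042878-115046726, plus strand) holds the miR-17 to miR-92 cluster. Dleu2 (chr14:61602838-61682372, minus strand) carries miR-16, and 6720427I07Rik (chr13:48535522-48537821, minus strand) carries let-7d. The other 4 carriers are E130102H24Rik (miR-101a), Ftx (miR-374b and miR-421), Mir670hg (miR-670) and Snhg20 (miR-6516). Sequences are printed for the first 5, whose miRNAs are the better known, and not for the other 4. The mature RNAs follow 5′ to 3′ from RefSeq on GRCm38.p6, with the seed, bases 2 to 8, in capitals. In Mir17hg, miR-17-5p and miR-20a-5p share 1 seed and miR-19a-3p and miR-19b-3p another.
miR-142a-3p: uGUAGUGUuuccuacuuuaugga
miR-142a-5p: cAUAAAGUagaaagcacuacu
miR-155-5p: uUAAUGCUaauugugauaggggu
miR-16-5p: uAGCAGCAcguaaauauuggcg
let-7d-5p: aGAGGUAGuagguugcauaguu
miR-17-5p: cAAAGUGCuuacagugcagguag
miR-20a-5p: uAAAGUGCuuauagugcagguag
miR-19a-3p: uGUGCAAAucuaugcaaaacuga
miR-19b-3p: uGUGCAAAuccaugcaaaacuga
miR-92a-3p: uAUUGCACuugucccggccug

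Since the tags mark transcript ends, the ends themselves show whether a gene was read at its own 3′ end. For 48 genes the most used site lay within 10 bases of an annotated transcript end with no other gene on that strand. Of these, 31 (64.6%) held AATAAA, the common poly(A) signal, in their last 30 bases on the transcript's strand, and 8 more held ATTAAA, a common variant, without it. The AATAAA signal was found in the same window of 27.1% of 9101 M21 lincRNA transcripts and of 35.5% of 58797 coding transcripts. The ends of 6 genes that the results turn on are printed 5′ to 3′ as the last 30 bases of the transcript, with AATAAA in capitals. They are Snhg5 (chr9:88521052-88521081, minus strand), Mir142hg (chr11:87757241-87757270, plus strand), Snhg12 (chr4:132310995-132311024, plus strand), Neat1 (chr19:5842307-5842336, minus strand), 9330175E14Rik (chr8:94422898-94422927, minus strand) and AU020206 (chr7:75769038-75769067, minus strand).
Snhg5: gtattgaAATAAAaaacattcaattgcaaa
Mir142hg: cctcaacactAATAAAgaatggactggttt
Snhg12: agttggttcAATAAAgacttttggaaagtg
Neat1: tttacagcaaAATAAAggtttgagattgaa
9330175E14Rik: tctcccctAATAAAttgaaccagttctctg
AU020206: AATAAAgcttgcttcatattggtctcagaa

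Along the LPS gradients the lincRNAs lay more in monosome and light polysome fractions, and less in heavy polysomes, than coding genes did. With the 13 fractions scaled to the same total, the median lincRNA had 37.9% of its counts in monosomes, 27.3% in light polysomes and 26% in heavy polysomes. The median of the 9923 coding genes with as many counts had 20.7%, 21.8% and 53.8%. With counts as deposited, the medians were 21.8%, 37.7% and 33.2% in lincRNAs and 10.1%, 25% and 62.9% in coding genes. A lincRNA peaked in a monosome fraction in 73 cases, in a light one in 45 and in a heavy one in 17. In coding genes 62% peaked in a heavy fraction. Fraction 4 was the most frequent single peak, in 35 lincRNAs, followed by fraction 8 in 28. Over all treatments, 12 libraries held under 100000 counts, 5 of them of fraction 4 and 4 of fractions 15 and 16. Peaks of sparse genes in such fractions can rest on few tags.

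**Figure D1:**
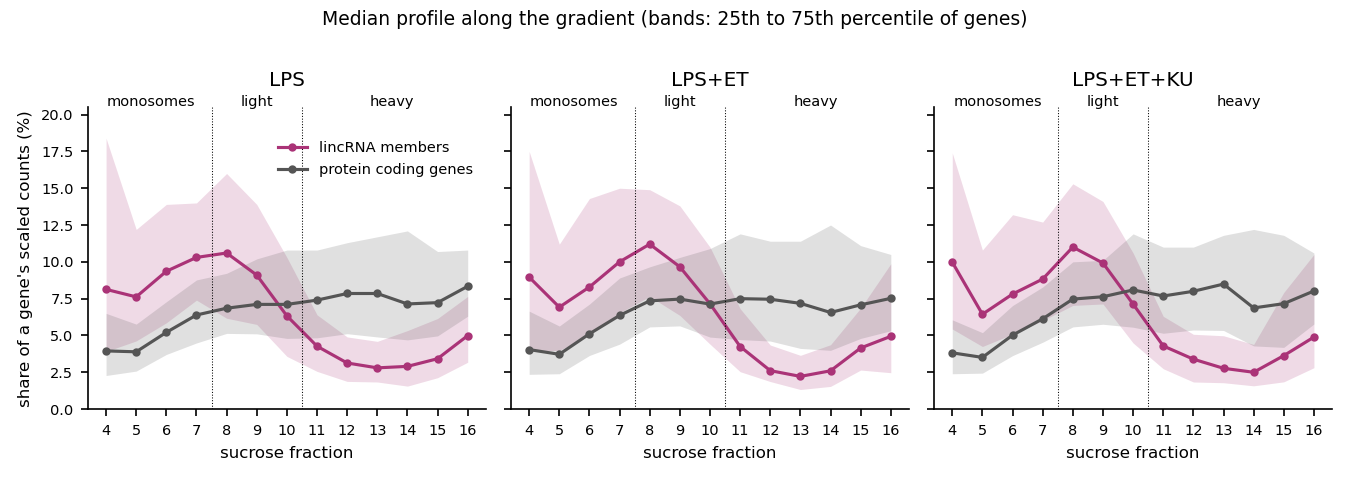
Share of a gene's scaled counts (%, y axis) in each sucrose fraction (x axis) for 135 lincRNAs and 9923 protein coding genes in LPS, LPS+ET and LPS+ET+KU. Lines are medians over genes and bands the 25th to 75th percentile of genes; in LPS the lincRNA median was 10.6% in fraction 8 and 2.8% in fraction 13.

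Heavy polysomes were set against monosomes with edgeR's quasi-likelihood test on the class sums of each gradient, with a term per gradient. Calls were made where the p, adjusted by Benjamini-Hochberg over all genes tested, was under 0.01. All 135 lincRNAs passed the filter on low counts here and in the sums over a gradient. In LPS, 95 of the 135 were lower in heavy polysomes than in monosomes and 3 were higher, while of all 11034 genes tested 51.4% were called, 22.9% lower and 28.5% higher. The median log2 ratio of heavy to monosome CPM was -1.71 in lincRNAs and 0.11 over all genes tested. It was -1.67 in 74 genes typed as processed transcript, -1.85 in 65 antisense genes and 0.20 in coding genes, so the low position was shared by the other noncoding classes. Heavy CPM was below monosome CPM in 4 of 4 LPS gradients for 98 lincRNAs and in 0 of 4 for 7. No such count is given for other genes. The 48 genes read at their own annotated end had 39 called lower and 1 higher, with a median of -2.37, and the other 87 had 56 lower and 2 higher, with a median of -1.57. Light polysomes differed less from monosomes, with 9 lincRNAs higher and 40 lower (24.6% of all genes called, 12.9% higher and 11.7% lower). Against light polysomes, heavy ones had 4 lincRNAs higher and 88 lower (53.4% of all genes called, 29.6% higher and 23.8% lower). With all fractions weighted equally (limma), 67 lincRNAs were called heavy against monosome, 61 of them shared with the main fit, and 65 heavy against light. Neither the direction nor the share over all genes is given for these limma counts.

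Under etoposide most lincRNAs were again lower in heavy polysomes. Heavy against monosome, 88 lincRNAs were lower and 2 higher in LPS+ET (49.6% of all genes called, 22.7% lower and 26.9% higher), with a median log2 ratio of -1.94, and 94 were lower and 3 higher in LPS+ET+KU (54.4% of all genes called, 25.4% lower and 29% higher), with a median of -1.81. Peaks fell in monosomes for 74 and 63 genes, in light polysomes for 37 and 44, and in heavy polysomes for 24 and 28, respectively.

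All 9 carriers of miRNA hairpins were called lower in heavy polysomes than in monosomes in LPS, over a wide range of log2 ratios from -5.32 (6720427I07Rik) to -1.0 (Mir670hg). E130102H24Rik had -3.97, Snhg20 -3.44 and Ftx -1.94, so Mir670hg lay above the lincRNA median and Ftx close to it. Mir142hg had 1460, 1670, 546 and 898 CPM in monosomes of the 4 LPS gradients, in the order of pools LUL15 to LUL18, 111, 79.5, 43 and 78.9 CPM in light polysomes, and 35.8, 37.1, 17.5 and 28.3 CPM in heavy polysomes. Every monosome value was above every light value, and 57.8% of its scaled counts lay in fraction 4 alone. The log2 ratio of heavy to monosome was -5.21 ± 0.22 (SE, edgeR adjusted p = 4.3e-22). 6720427I07Rik, the let-7d host, had 103, 71.5, 93.1 and 160 CPM in monosomes and 3.34, 2.26, 1.93 and 2.7 CPM in heavy polysomes of the same pools. The classes again did not overlap, the ratio was -5.32 ± 0.25 on the log2 scale (edgeR adjusted p = 9.2e-21), and its peak was fraction 5 with 38.4% of the scaled counts. The ratios of Dleu2, Mir17hg and Mir155hg were -4.22, -4.05 and -3.90, all called lower. Mir155hg had its peak in fraction 4 with 37.1% and a second rise in fractions 7 and 8 with 14.5% and 12.9%. All 4 listed miRNA hosts, Dleu2, Mir142hg, Mir155hg and Mir17hg, were called lower in heavy polysomes in each of the 3 treatments.

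**Figure D2:**
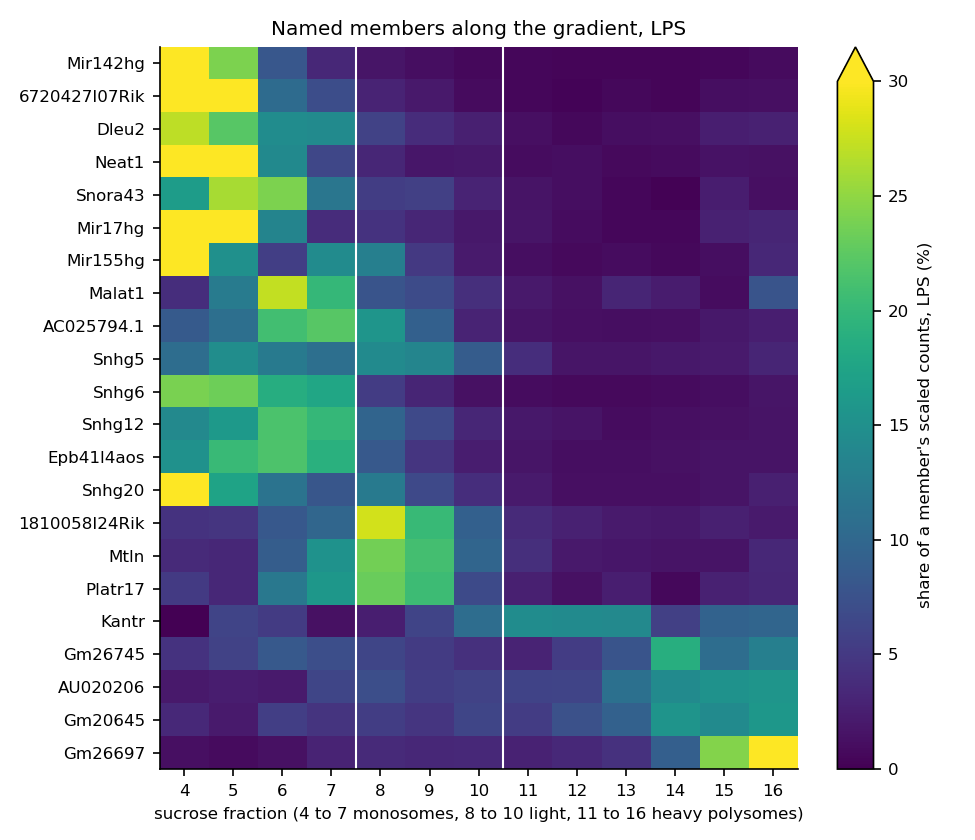
Share of each gene's scaled counts (%, colour, capped at 30) in sucrose fractions 4 to 16 (x axis) of the LPS gradients for 22 lincRNAs (y axis). White lines part monosomes, light and heavy polysomes; Mir142hg peaked in fraction 4 with 57.8%, 1810058I24Rik in fraction 8 with 28% and Gm26697 in fraction 16 with 39.1%.

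Neat1 and Malat1, which build nuclear paraspeckles and sit in nuclear speckles, were both detected in these cytoplasmic extracts. Neat1 (chr19:5824707-5845477, minus strand) had 161, 141, 109 and 145 CPM in monosomes and 5.45, 4.24, 6.14 and 7.31 CPM in heavy polysomes of the 4 LPS gradients. The classes lay far apart, with a log2 ratio of -4.62 ± 0.20 (edgeR adjusted p = 2.3e-21) and a peak in fraction 5. Malat1 had 45.9, 33.5, 72.2 and 90.1 CPM in monosomes and 3.56, 3.02, 5.44 and 9.34 CPM in heavy polysomes, a ratio of -3.52 ± 0.33 (edgeR adjusted p = 7.8e-12), and its peak was fraction 6 with 27.3%. Jpx and Ftx, noncoding genes of the X inactivation centre, had ratios of -3.71 and -1.94. Pvt1, which neighbours Myc, had -2.82. All were called lower. The 4 lincRNAs of a list of nuclear or chromatin RNAs (Ftx, Jpx, Malat1, Neat1) and the 4 of a list linked to p53 (Dleu2, Malat1, Neat1, Pvt1) were thus lower in heavy polysomes in all cases.

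snoRNA host transcripts were counted over any type, since the table gives types other than lincRNA to several of them. Of the 14 in the table with enough counts, 6 were lincRNAs, and all 13 that could be tested for position were lower in heavy polysomes than in monosomes, with a median log2 ratio of -3.96. Snhg6 had 169, 231, 272 and 318 CPM in monosomes and 6.9, 8.11, 7.37 and 10.3 CPM in heavy polysomes of the LPS gradients, and its ratio was -4.88 ± 0.21 (edgeR adjusted p = 1.3e-21). Snhg12 had 242, 226, 224 and 224 CPM against 14, 13.8, 11.2 and 9 CPM, a ratio of -4.25 ± 0.21 (edgeR adjusted p = 3.5e-20). Neither gene's classes overlapped. Snhg5 differed in form: its CPM was 740, 827, 993 and 921 in monosomes, 538, 491, 955 and 748 in light polysomes and 105, 99.5, 158 and 119 in heavy polysomes. Monosome and light values of Snhg5 overlapped, the light to monosome ratio of -0.39 was not called (edgeR adjusted p = 0.0238), and heavy polysomes lay below both. AC025794.1, the most abundant of the 135, had 2250, 2130, 4060 and 3250 CPM in monosomes, 971, 621, 1980 and 1640 CPM in light polysomes and 127, 121, 223 and 180 CPM in heavy polysomes, with a heavy to monosome ratio of -4.16 ± 0.21 (edgeR adjusted p = 1.6e-19).

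Some lincRNAs were richest in light polysomes. 1810058I24Rik (chr6:35252653-35263495, plus strand), a gene now known to encode a short mitochondrial membrane protein, had 427, 588, 203 and 292 CPM in monosomes, 935, 865, 355 and 727 CPM in light polysomes and 113, 140, 45.6 and 68.2 CPM in heavy polysomes. Within each gradient light polysomes were highest and heavy lowest. The light to monosome log2 ratio was 0.96 ± 0.15 (edgeR adjusted p = 4.6e-06) and the heavy to light ratio -3.02 ± 0.16, with 28% of the scaled counts in fraction 8. The other genes called higher in light polysomes than in monosomes were AU020206, Gm26904, Gm5914, 4933404O12Rik, 1700113A16Rik, Gm17322, 4732491K20Rik and Gm12066. Of these only AU020206 had a positive heavy to light log2 ratio, 0.49 (not called, edgeR adjusted p = 0.0185). Mtln, which encodes the small mitochondrial protein mitoregulin, and Platr17 also peaked in fraction 8, with 23.6% and 23.1%. Their light to monosome ratios of 0.59 and 0.27 were not called (edgeR adjusted p = 0.0111 and 0.457), and their heavy to light ratios were -2.96 and -3.12, both lower. Fam169b and Kantr, the other genes later typed as coding, had heavy to light ratios of -0.56 (lower) and 0.81 (not called, edgeR adjusted p = 0.0303).

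The 3 lincRNAs called higher in heavy polysomes than in monosomes were Gm26697, AU020206 and Gm20645. Gm26697 (chr2:126521201-126553661, minus strand) had 61.7, 81.5, 37.1 and 40.5 CPM in monosomes, 118, 84.7, 82.5 and 80.1 CPM in light polysomes and 245, 205, 299 and 238 CPM in heavy polysomes. All heavy values exceeded all others, the log2 ratio was 2.16 ± 0.22 (edgeR adjusted p = 7.3e-11), and fraction 16 held 39.1% of the scaled counts. Its site lay in an intron, 15971 bases from the annotated end. AU020206 had 100, 112, 95 and 126 CPM in monosomes and 194, 203, 306 and 250 CPM in heavy polysomes, a ratio of 1.12 ± 0.19 (edgeR adjusted p = 4.1e-06), with its site 1 base past the annotated gene. Gm20645 had a ratio of 0.61 ± 0.18 (edgeR adjusted p = 0.00367), with heavy above monosome CPM within each gradient although the classes overlapped between pools. Gm26745, 1 of the 5 most abundant genes, was higher in heavy than in light polysomes by 0.52 ± 0.13 on the log2 scale (edgeR adjusted p = 9.3e-04) but was not called against monosomes. Its site lay in an intron, 117597 bases from the annotated end and opposite the coding gene Setd1b.

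**Figure D3:**
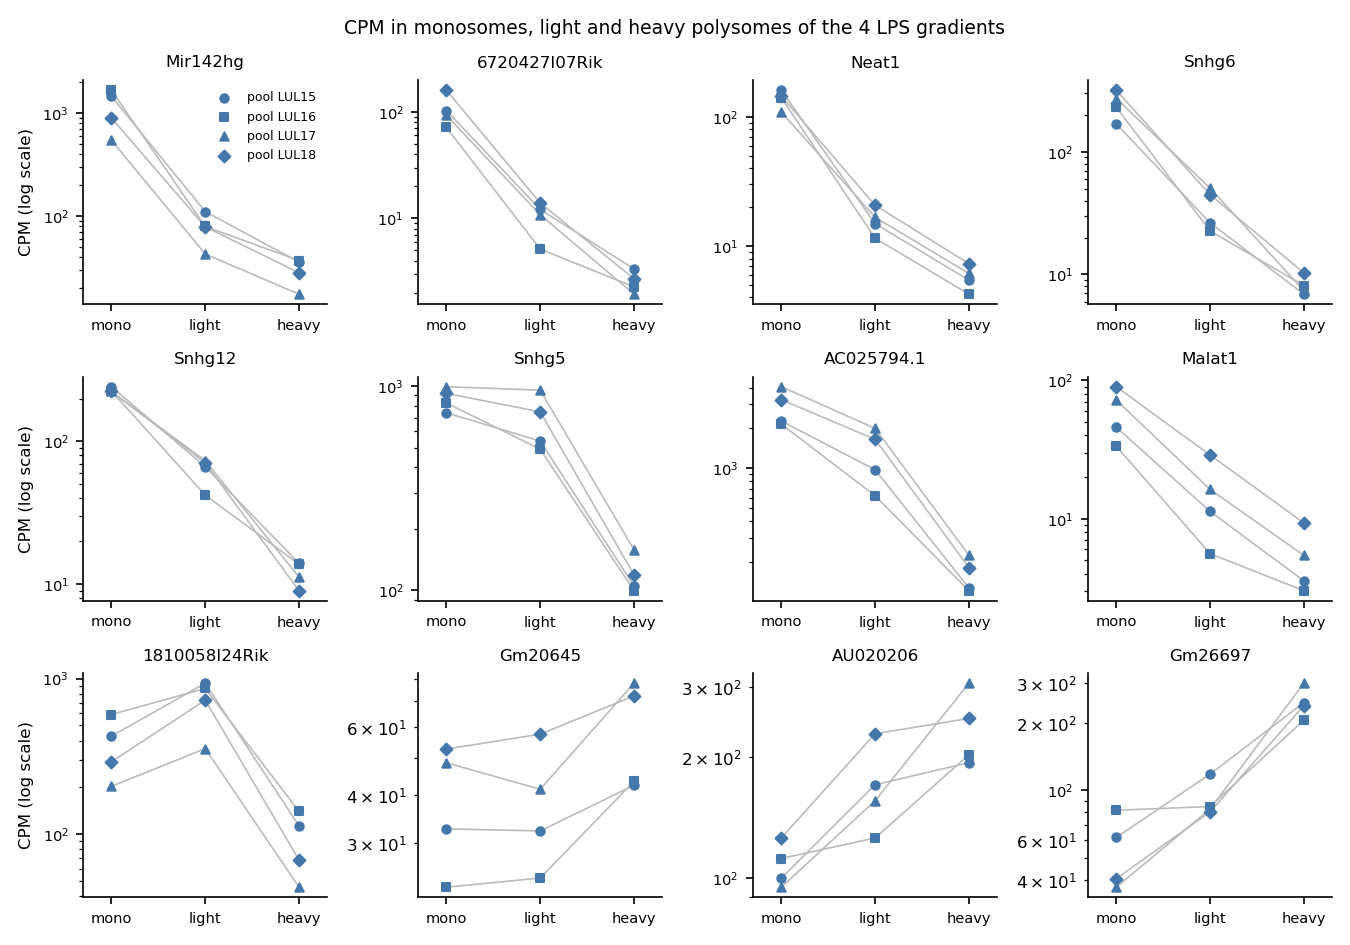
CPM (log y axis) of 12 lincRNAs in monosomes, light and heavy polysomes (x axis) of the 4 LPS gradients, with each gradient a symbol joined by a line. Mir142hg fell from 546 to 1670 CPM in monosomes to 17.5 to 37.1 CPM in heavy polysomes, and Gm26697 rose from 37.1 to 81.5 CPM to 205 to 299 CPM.

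The number of lincRNAs called under etoposide depended on the fit. With counts of fractions 4 to 16 summed per gradient, 1 edgeR fit held all 12 gradients and treatment alone, without the pairing by pool. It had 7 of the 135 higher and 9 lower in LPS+ET than in LPS. That is 11.9%, close to the 12.7% called among all 12755 genes tested, 7.88% higher and 4.81% lower. The median log2 fold change was -0.17 in lincRNAs and 0.03 in all genes tested. It was -0.21 in processed transcript genes, -0.17 in antisense genes, -0.11 in pseudogenes and -0.03 in coding genes. CPM did not overlap between the 4 and 4 gradients in 36 of the 135 (26.7%), against 27.5% of all genes. With a term per pool, 40 lincRNAs were called, 16 higher and 24 lower, and without the gradients of pool LUL16 27 were called, 6 higher and 21 lower. No share over all genes is given for these fits. With all fractions weighted equally (limma), 11 were called, 9 of them among the 16, again without a share over all genes. Mirt1, 1700120G11Rik, Lppos, AI662270, Fam169b, Gm15892 and 5430416N02Rik were then not called (limma adjusted p = 0.0142, 0.0285, 0.0108, 0.0784, 0.0117, 0.106 and 0.0194), with unchanged direction. The threshold of 300 counts ran over all treatments together, so some called genes passed it only with the treatment in which they were high. Without LPS+ET, 1700003M07Rik would have 255 counts and Gm15892 210. Without LPS, Gm20707 would have 295, Gm12066 129, Gm26637 106 and 9930014A18Rik 148.

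1700003M07Rik (chr4:129960373-129963656, plus strand) had the largest fitted rise of the 7, and its 852 counts in LPS+ET took it past the threshold of 300. Its CPM was 0.647, 0.455, 0.793 and 0.994 in LPS, 18.3, 7.67, 19.8 and 27.2 in LPS+ET, and 4.93, 0.59, 5.49 and 5.69 in LPS+ET+KU for pools LUL15 to LUL18. All LPS+ET values were above all LPS values, and within each pool LPS+ET+KU lay between the other treatments. The log2 fold change from LPS to LPS+ET was 4.68 ± 0.63 (edgeR adjusted p = 1.6e-04), with 7 to 12 counts in an LPS gradient. It rose in all 3 classes, by 4.83 in monosomes, 5.35 in light and 4.11 in heavy polysomes.

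9330175E14Rik had 13.7, 15.1, 11.9 and 13.7 CPM in LPS and 53.1, 120, 62 and 62.5 CPM in LPS+ET. The groups were far apart, the value of pool LUL16 lay above the other LPS+ET gradients, and the change was 2.45 ± 0.27 (edgeR adjusted p = 2.8e-05). Gm10505 (chr17:27342459-27344824, plus strand) had 3.45, 6.02, 3.85 and 4.14 CPM in LPS and 18.7, 51.2, 18.8 and 20.5 CPM in LPS+ET, a change of 2.62 ± 0.34 (edgeR adjusted p = 1.1e-04). In monosomes alone, pool LUL16 was again the highest LPS+ET gradient, with 138 CPM of 9330175E14Rik against 101 to 103 and 95.6 CPM of Gm10505 against 46.5 to 58.5. Gm15675 had 1.73, 0.796, 0.679 and 0.994 CPM in LPS and 5.85, 7.2, 5.96 and 8.08 CPM in LPS+ET, a change of 2.66 ± 0.29 (edgeR adjusted p = 3.4e-05). These 3 genes and 1700003M07Rik were higher in each of the 3 classes. 1700120G11Rik had 13.7, 12.3, 14.6 and 11 CPM in LPS and 31, 22.1, 41.1 and 32.1 CPM in LPS+ET, a change of 1.29 ± 0.25 (edgeR adjusted p = 0.00219) that was not called without the LPS gradient of pool LUL18.

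The remaining rises were less steady. Gm15892 had 0.17 to 0.288 CPM in LPS, from 2 to 4 counts in a gradient, and 1.4, 8.14, 1.53 and 1.84 CPM in LPS+ET, and its call (3.69 ± 0.85, edgeR adjusted p = 0.0067) was lost without any LPS gradient and without LPS+ET of pool LUL16 or LUL18. Without the gradients of pool LUL16 its change was 2.57. Gm26787, which lies opposite the coding gene Ei24, rose by 2.23 ± 0.51 (edgeR adjusted p = 0.00666), a call lost without LPS of pool LUL16, LUL17 or LUL18 and without LPS+ET of pool LUL15 or LUL16.

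Among the genes that fell, Gm26637 had 4.68, 4.72, 3.4 and 4.14 CPM in LPS and 0.624, 0.626, 0.535 and 0.79 CPM in LPS+ET, a change of -2.70 ± 0.31 (edgeR adjusted p = 4.5e-05). The LPS+ET values rest on 4 to 9 counts a gradient and lie well below LPS. Gm20707 had 14.3, 10.9, 14.4 and 9.44 CPM in LPS and 3.12, 1.88, 2.83 and 1.76 CPM in LPS+ET, a change of -2.33 ± 0.24 (edgeR adjusted p = 2.2e-05). The coding gene Zfp984 covers the site of Gm20707 on the same strand, so the tags of the 2 genes cannot be told apart. Mirt1 (chr19:53441211-53464795, minus strand) had 30.7, 33.8, 34 and 42.5 CPM in LPS, 7.96, 18.3, 5.73 and 8.87 CPM in LPS+ET, and 22.6, 55.3, 24.6 and 29.9 CPM in LPS+ET+KU. LPS+ET lay below both other treatments in each pool. The fall of -1.81 ± 0.36 (edgeR adjusted p = 0.00249) was not called without LPS+ET of pool LUL15 or LUL18, and in light polysomes alone it was -2.55 (edgeR adjusted p = 8.9e-05). 5430416N02Rik, the most abundant of the called genes, had 85.9, 74.7, 97 and 107 CPM in LPS, 42.1, 62.4, 49 and 55.9 CPM in LPS+ET and 79, 91.8, 89.7 and 88.7 CPM in LPS+ET+KU, a fall of -0.80 ± 0.17 (edgeR adjusted p = 0.00384).

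Lppos fell by 1.59 on the log2 scale, 9930014A18Rik by 2.00, Gm12066 by 2.25, AI662270 by 1.13 and Fam169b by 1.42. The call of Gm12066 was lost without LPS of pool LUL16 and without LPS+ET of pool LUL17 or LUL18. Fam169b (edgeR adjusted p = 0.00923) was not called in any fit that left out 1 of the 8 gradients. Each of the 5 had all LPS+ET values below all LPS values.

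**Figure D4:**
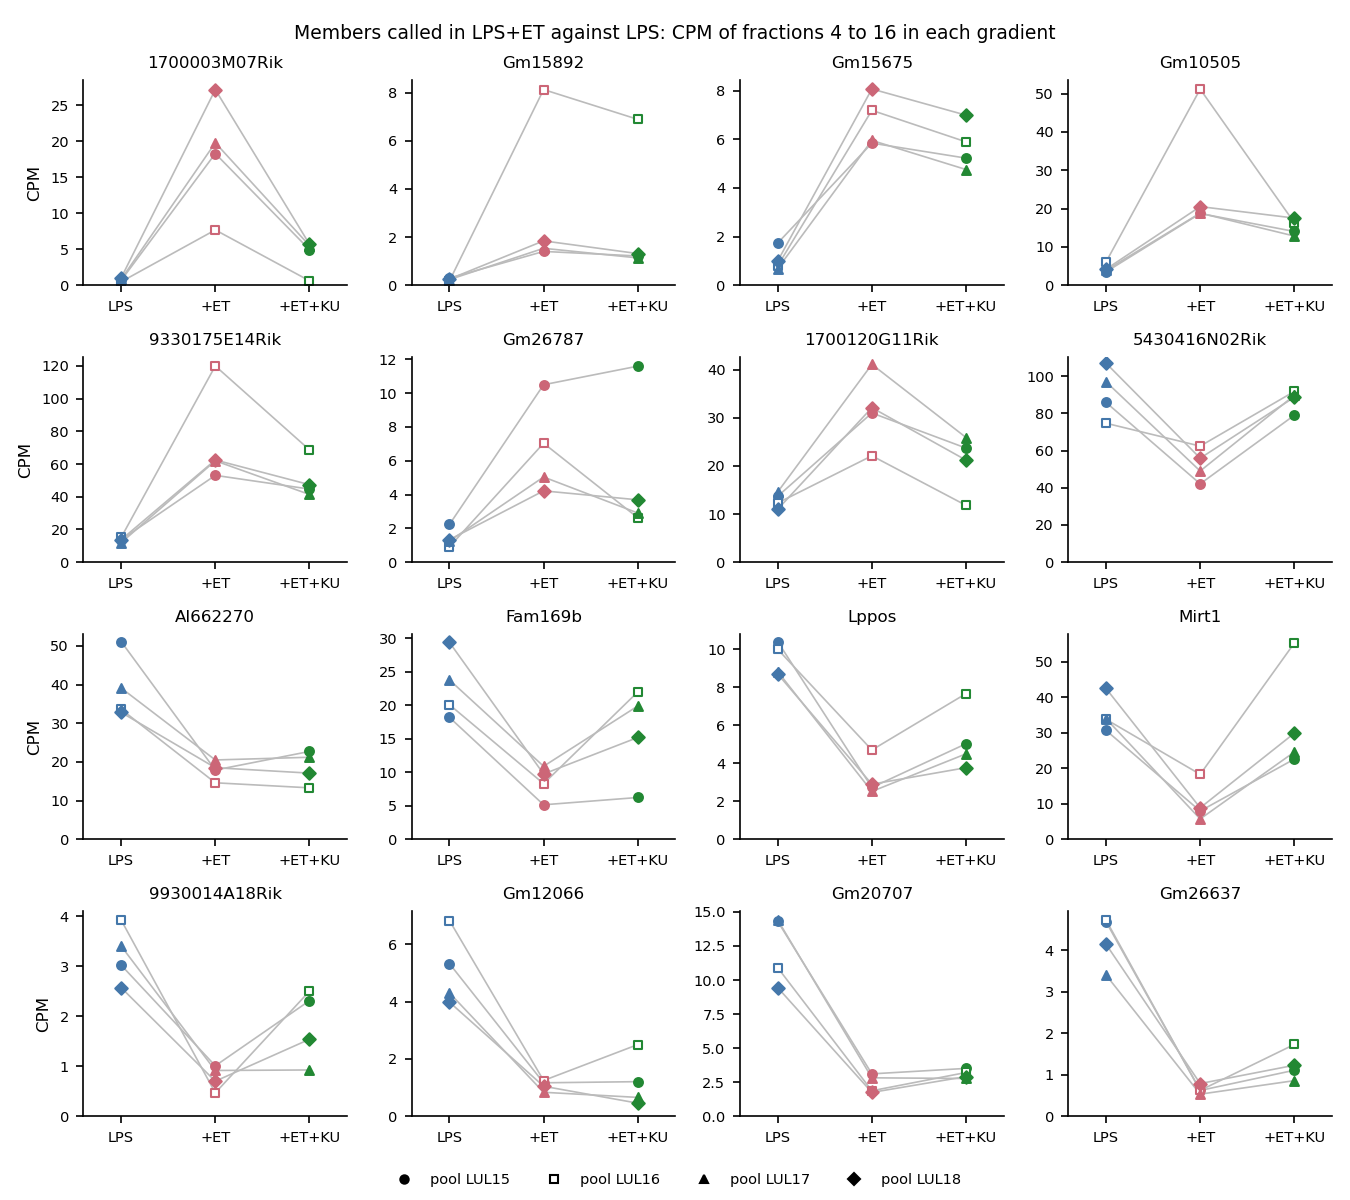
CPM of fractions 4 to 16 (y axis) in each gradient for the 16 lincRNAs called between LPS+ET and LPS, with treatments on the x axis and gradients of a pool joined by a line. 1700003M07Rik rose from 0.455 to 0.994 CPM to 7.67 to 27.2 CPM and Gm20707 fell from 9.44 to 14.4 CPM to 1.76 to 3.12 CPM; open squares mark pool LUL16.

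The fits of single classes held 106 lincRNAs with enough counts in monosomes, 121 in light and 120 in heavy polysomes. Between LPS+ET and LPS, 9 were higher and 4 lower in monosomes (9.52% of all genes called, 6.44% higher and 3.08% lower). In light polysomes 7 were higher and 6 lower (10.6% of all genes called, 6.56% higher and 4.07% lower), and in heavy polysomes 6 were higher and 6 lower (9.69% of all genes called, 6.14% higher and 3.55% lower). With a term per pool these counts of 13, 13 and 12 became 34, 35 and 25. The monosome count was 4 without LPS of pool LUL18 or LPS+ET of pool LUL15 or LUL18, 5 and 6 without LPS of pool LUL17 and LUL16, and 8 without LPS of pool LUL15 or LPS+ET of pool LUL17. The heavy count was 6 and 7 without LPS of pool LUL15 and LUL18. No share over all genes stands beside the counts of these other fits, so they are not set against other genes.

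Several genes were called within a class but not over the whole gradient. AI504432 (chr3:107039503-107054346, plus strand) had 37.8, 24, 15.2 and 28.4 CPM in monosomes of LPS and 115, 90.3, 41 and 54.7 CPM in monosomes of LPS+ET. All LPS+ET values were above all LPS values, and the change was 1.57 ± 0.36 (edgeR adjusted p = 0.00768). 9230111E07Rik rose by 1.52 and Gm1976 by 1.09 in monosomes, 9230114K14Rik by 3.86 in monosomes and 2.85 in light polysomes, D930016D06Rik by 2.00 in light polysomes and 1600020E01Rik by 1.19 in heavy polysomes. Mir155hg had 54.8, 77, 65.6 and 72 CPM in monosomes of LPS and 25, 36.1, 28.7 and 16.4 CPM in monosomes of LPS+ET, without overlap, a change of -1.27 ± 0.27 (edgeR adjusted p = 0.0046). Gm12678 fell by 1.66 on the log2 scale in light and by 2.21 in heavy polysomes, and D130017N08Rik by 1.95 in heavy polysomes.

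With etoposide, lincRNAs were called for a changed position along the gradient about as often as all genes. In simulated data of the class fit, 16% of changes of 1 on the log2 scale were recovered, so a gene not called may still have moved. The heavy to monosome ratio differed between LPS+ET and LPS in 6, 1 higher and 5 lower, or 4.44%, against 5.10% of all genes tested, 1.63% higher and 3.47% lower. For AI504432 heavy CPM was 21.6, 15.3, 8.42 and 12.3 in LPS and 16.1, 11.9, 8.2 and 9.45 in LPS+ET while monosome CPM rose as above, and the ratio changed by -1.83 ± 0.26 (edgeR adjusted p = 1.2e-05). For Gm26697 heavy CPM went from 245, 205, 299 and 238 in LPS to 149, 152, 82.1 and 79.3 in LPS+ET without overlap, monosome CPM was 37.1 to 81.5 and 43.1 to 81.8, and the ratio changed by -1.33 ± 0.31 (edgeR adjusted p = 0.00366). D130017N08Rik changed by -2.69, 9530036O11Rik by -1.60, Gm1976 by -1.48 and Gm26745 by 0.79. The count was 2 when the border fractions of each class were left out, 2 with all fractions weighted equally (limma) and 1 without a term per gradient. Shares over all genes are not given for these settings.

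With the ATM inhibitor, no lincRNA passed the threshold between LPS+ET+KU and LPS+ET in the fit on treatment alone. Of the 135, edgeR called 0 (0.455% of all genes, 0.220% higher and 0.235% lower). At an unadjusted p under 0.05 there were 33, against 2031 of all 12755 genes tested, and by DESeq2 7 were called. With a term per pool, 13 were called, 11 higher and 2 lower. For DESeq2 and the term per pool no share over all genes is given, so these counts are not set against other genes. The count was 4 without LPS+ET of pool LUL16, 2 without LPS+ET+KU of pool LUL16 and 10 without that pool. Here again no share over all genes is given. The median log2 fold change was 0.29 in lincRNAs, 96 of them above 0, and 0.04 over all genes tested. It was 0.39 in processed transcript genes, 0.33 in antisense genes, 0.17 in pseudogenes and 0 in coding genes. The upward shift was thus not particular to lincRNAs. CPM did not overlap in 12 (8.89%), against 8.57% of all genes.

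The share of counts from monosome libraries also differed between these groups, at 28.4 to 34% in LPS+ET+KU and 10.8 to 29% in LPS+ET, and its part in the result was not tested. In the 95 lincRNAs lower in heavy polysomes than in monosomes in LPS, the median change was 0.35 and 71 were above 0. With all fractions weighted equally (limma), it was 0.05 and 52 were above 0. In the other 40 it was 0.12 (24 above 0), and -0.09 (17 above 0) with equal weights. Within monosomes the median over lincRNAs was 0.02, within light polysomes -0.01 and within heavy polysomes 0.23, with 79 of 120 above 0. In heavy polysomes it was 0.28 in processed transcript genes, 0.21 in antisense genes, -0.13 in pseudogenes and 0 in coding genes. In these class fits edgeR called 0 lincRNAs. Of all genes it called 0.213% in monosomes (0.0672% higher, 0.146% lower), 0.292% in light polysomes (0.141% higher, 0.151% lower) and 0.572% in heavy polysomes (0.255% higher, 0.317% lower). The lincRNAs with an unadjusted p under 0.05 numbered 21, 22 and 18. Over all genes tested they numbered 1204 of 8932, 1515 of 9922 and 1691 of 11368. With a term per pool 13, 9 and 1 were called, and without LPS+ET of pool LUL16 the monosome fit called 1. These counts have no share over all genes beside them. The heavy to monosome ratio differed in 0 by edgeR (0.181% of all genes, 0.0816% higher and 0.0997% lower). At an unadjusted p under 0.05 there were 11, against 1422 of all 11034 genes tested.

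Of the genes called between LPS+ET and LPS, all but Gm26787, Gm12066, Gm20707 and AI662270 moved in the direction of their LPS values in every pool. Both contrasts share the LPS+ET gradients on which these genes were called, and the part of that choice in the return was not tested. The change of Mirt1 between LPS+ET+KU and LPS+ET was 1.61 in monosomes, 1.48 in light and 1.26 in heavy polysomes, none of them called (edgeR adjusted p = 0.0222, 0.036 and 0.0784). With a term per pool, the change over the whole gradient was 1.73 (edgeR adjusted p = 3.3e-04). 1700003M07Rik changed by -2.15 ± 0.53 over the gradient (edgeR adjusted p = 0.0516) and by -2.26 with a term per pool (edgeR adjusted p = 1.1e-04). 9330175E14Rik and Gm10505 remained above LPS with the inhibitor, at 41.4 to 68.7 and 12.8 to 17.5 CPM.

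Of the 14 snoRNA hosts edgeR called 0 between LPS+ET+KU and LPS+ET. All 14 had a positive log2 fold change, the sparse Snhg9 and Snhg11 among them. The median was 0.89, against 0.04 over all genes tested. With a term per pool 7 were called: Snhg5, Snhg6, Snhg12, Snhg20, Epb41l4aos and, of other types, Zfas1 and 2410006H16Rik. With all fractions weighted equally (limma) the median was 0.36, 13 of 14 were positive and 0 were called. Within monosomes the median was 0.42, with 10 of 12 positive, within light polysomes 0.23 and within heavy polysomes 0.51. In monosomes Snhg5 had 740, 827, 993 and 921 CPM in LPS, 748, 942, 911 and 652 CPM in LPS+ET and 1930, 1020, 1760 and 1250 CPM in LPS+ET+KU. The LPS+ET+KU values of Snhg5 were all above the others, by 0.85 ± 0.22 on the log2 scale over LPS+ET (edgeR adjusted p = 0.0881). AC025794.1 had 1330, 1090, 2200 and 2360 CPM in monosomes of LPS+ET and 3680, 1950, 6110 and 4850 CPM in those of LPS+ET+KU. It was higher with the inhibitor in each pool although the groups overlapped, with a change of 1.22 ± 0.35 (edgeR adjusted p = 0.124). Gas5, Snhg3 and Snhg15 changed little in monosomes, by 0.27, -0.08 and -0.07 (edgeR adjusted p = 0.742, 0.931 and 0.923).

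**Figure D5:**
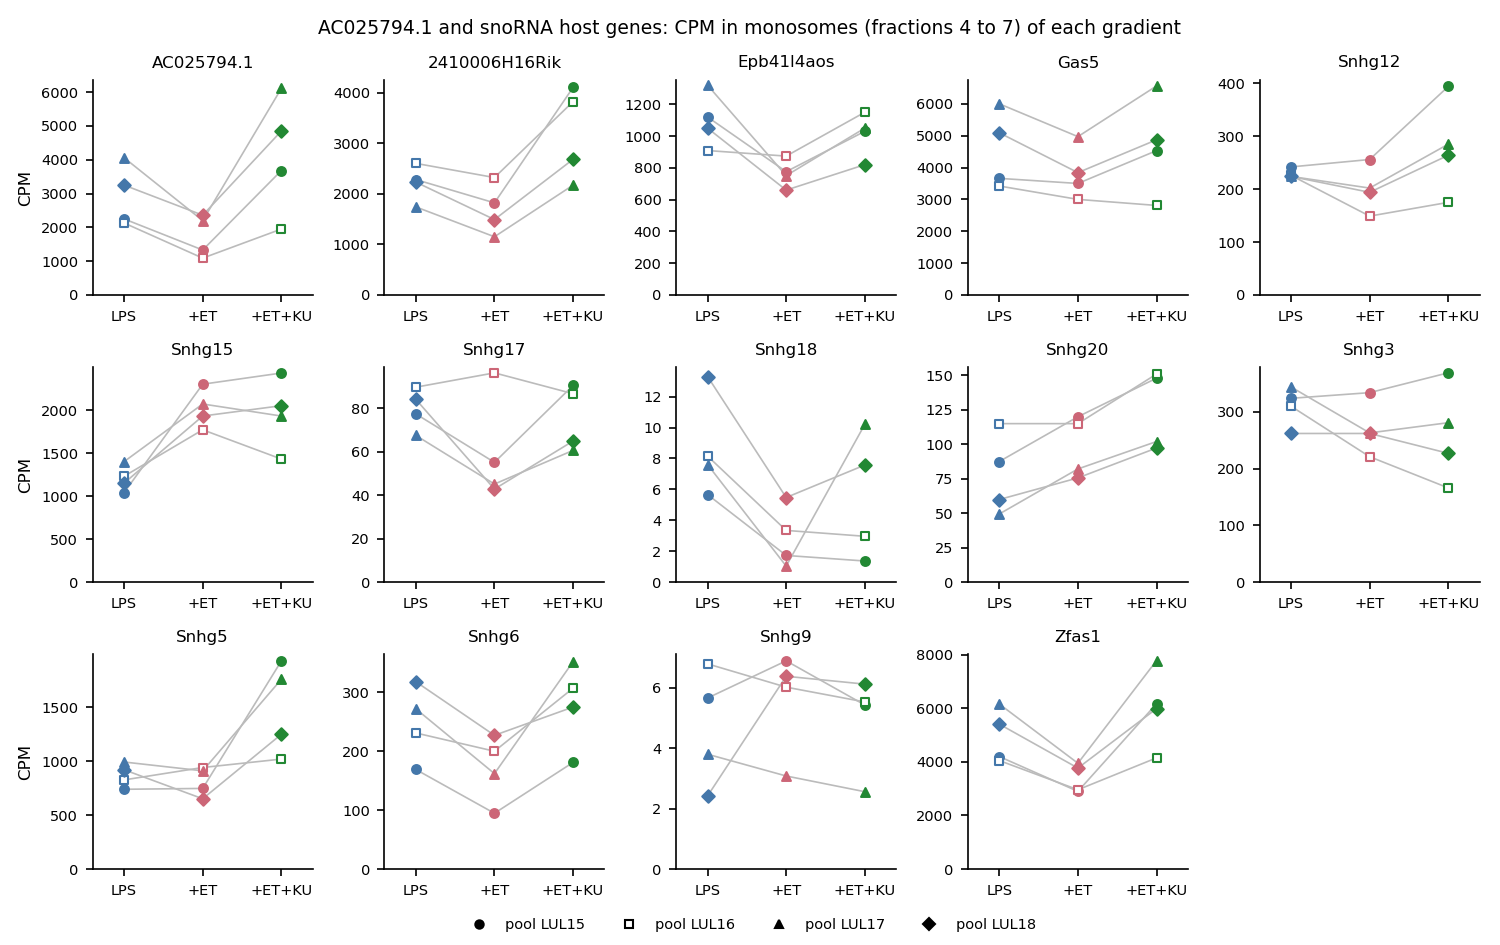
CPM in monosomes, fractions 4 to 7 (y axis), of AC025794.1 and 13 snoRNA host genes in each gradient, with treatments on the x axis and gradients of a pool joined by a line. Snhg5 lay at 652 to 942 CPM in LPS+ET and 1020 to 1930 CPM in LPS+ET+KU, and Snhg15 at 1770 to 2300 and 1430 to 2430 CPM.

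Snhg15, typed otherwise than lincRNA, was the snoRNA host that etoposide raised: its monosome CPM was 1040, 1230, 1400 and 1150 in LPS and 2300, 1770, 2070 and 1930 in LPS+ET, without overlap, a change of 0.81 ± 0.19 (edgeR adjusted p = 0.00882). Snhg17, also of another type, fell in light and heavy polysomes, by 0.93 and 1.48 on the log2 scale, and Snhg3 by 1.15 in light polysomes. Over the whole gradient no snoRNA host was called between LPS+ET and LPS by edgeR, and with a term per pool 3 were: Snhg15, Snhg17 and Snhg18.

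Against LPS, the cells with etoposide and inhibitor had 9 lincRNAs higher and 6 lower, 11.1%, with 10.7% of all genes called, 6.25% higher and 4.42% lower. CPM did not overlap in 28 (20.7%), against 26.4% of all genes. This comparison shares its LPS gradients with the one above. Gm15892, Gm15675, 9330175E14Rik and Gm10505 rose in both, and Gm12066, Gm20707, Gm26637 and AI662270 fell in both. B230217O12Rik had 3.17, 2.67, 2.15 and 2.32 CPM in LPS, 4.68, 9.08, 3.13 and 3.78 CPM in LPS+ET and 12.6, 9.4, 8.21 and 9 CPM in LPS+ET+KU. It was highest with the inhibitor in every pool, by 1.91 ± 0.31 over LPS (edgeR adjusted p = 1.0e-03). Gm26665, Gm16702, Gm19705 and D930016D06Rik were higher by 1.74, 1.19, 1.09 and 1.00, and Gm26858 and Gm26697 were lower, by -1.76 and -1.47. The count of 15 was 36 with a term per pool, 27 without LPS+ET+KU of pool LUL16, 7 without LPS of pool LUL15 and 9 without LPS+ET+KU of pool LUL15 or LUL18. For these fits, too, no share over all genes is given. The calls of Gm16702, Gm19705, D930016D06Rik, Gm15892 and Gm12066 were lost in 6 or more of the 8 fits that left out 1 gradient. The choice of genes by counts pooled over all treatments limits this comparison too. Gm26665 and Gm15892 would fall below the count threshold without LPS+ET+KU, in which Gm15892 had 198 counts, against 12 in LPS. Without LPS, Gm12066, Gm20707 and Gm26637 would fall below it, with 129, 295 and 106 counts. The count of 15 thus includes genes chosen partly by the group in which they were high.

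The listed p53-linked and nuclear RNAs and 1700020I14Rik, listed as a cytoplasmic RNA, did not pass the threshold for a change in level. Neat1 had 26.8, 24.4, 21.7 and 29.7 CPM in LPS, 12.2, 50.1, 13.5 and 13.7 CPM in LPS+ET, and 24.6, 129, 36.8 and 28 CPM in LPS+ET+KU. Pool LUL16 stood apart in both etoposide groups, and in the other 3 pools LPS+ET was below LPS. Without pool LUL16 the change of Neat1 was -1.0 between LPS+ET and LPS and 1.18 between LPS+ET+KU and LPS+ET. Neat1 was called in both, but these fits were chosen after seeing the data. The pool left out held its outlying values, so the calls are no separate support. Malat1 had 11.3, 8.07, 16.8 and 25.6 CPM in LPS, 17.9, 23.6, 36.3 and 57.1 CPM in LPS+ET and 17.2, 22.4, 78.6 and 84.1 CPM in LPS+ET+KU. It was higher in LPS+ET than in LPS within each pool, by 1.14 on the log2 scale, and was called with a term per pool. Pvt1, at 31.5 to 39.4 CPM in LPS and 13.9 to 31.6 CPM in LPS+ET, was called lower with that term (-0.94, edgeR adjusted p = 0.00693). Of the 4 listed miRNA hosts, edgeR called 0 over the whole gradient in the 3 treatment contrasts. Without pool LUL16 it called Mir155hg, at -1.44 between LPS+ET and LPS and 1.20 between LPS+ET+KU and LPS+ET. That pool held the outlying LPS+ET value of Mir155hg, 18.8 CPM, so these calls are no separate support either.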

How the data were processed

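The authors reverse transcribed equal RNA concentrations of each fraction, collapsed duplicates by the random bases of the primer, cut A tracts off the tags, aligned them to GRCm38 and tallied them per Ensembl gene. The deposited table holds raw counts, which were whole numbers. The aligner used for these libraries was not given in the sources used here; the submitters' processing notes list TopHat2 2.0.12, HTSeq and DESeq2 1.6.3. Of 157 columns, 79 matched a single labelled sample and 78 their treatment and fraction only. The fraction 17 library was left out of all tests.

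Counts were summed per gradient, or per class of fractions, and tested with edgeR 4.0.16 (TMM, filterByExpr, quasi-likelihood F-test, two-sided, calls at 0.01 after Benjamini-Hochberg adjustment, as in the study) in R 4.3.3. Treatment contrasts used all 12 gradients and treatment alone. Class contrasts used 36 class sums and a term per gradient. DESeq2 1.42.0 and limma 3.58.1 (pseudocount of 0.5 CPM) served as alternatives, as did low count filters, size factors, gradients left out in turn and, chosen after seeing the data, fits without pool LUL16. Tested on simulated data of the summed fit and of the class fit, edgeR recovered 95% and 94% of genes changed by 2 on the log2 scale, and 19% and 16% of those changed by 1.

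Deviations from treatment means correlated at 0.305 to 0.799 within pools (12 of 12 pairs over 0.1) and at -0.628 to 0.284 between pools, so pools were taken to pair gradients; the pairing comes from column names. The study states 4 biological replicates. The genes described and all gene lists were chosen with earlier results of these data known. Genes named are the 5 with most counts, the 8 largest changes called each way per contrast, up to 4 called in single classes, the largest heavy to monosome ratios, those with a changed ratio, and list members; 5430416N02Rik, 9230114K14Rik, Gm12678, E130102H24Rik, Mir670hg, Gm42418 and the genes listed as higher in light polysomes other than 1810058I24Rik, AU020206 and Gm12066 fall outside this rule and were named after their values were seen. Sequences are from RefSeq (GRCm38.p6) and GENCODE M21 transcripts; Epb41l4aos is given without sequence.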

Additional observations from a re-analysis of the deposited data

Results flagged for a closer look

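In groups of 4 gradients, a value was singled out where it lay far from the nearest of the others relative to the range of the group (Dixon's test). Of 195 groups 21 were singled out, chance gives about 1 in 20, and 17 of the 21 were of pool LUL16, 10 of them under LPS+ET and 7 under LPS+ET+KU. The pool LUL16 gradient of LPS+ET had the fewest counts, 6404957, and 29% of its counts came from monosome libraries, against 10.8 to 13% in the other 3 LPS+ET gradients. Their part in these values was not tested.

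In LPS+ET of pool LUL16 the highest values of the group were 425 CPM of Snhg5, 270 CPM of Epb41l4aos, 120 CPM of 9330175E14Rik, 51.2 CPM of Gm10505, 8.14 CPM of Gm15892, 18.8 CPM of Mir155hg, 50.1 CPM of Neat1, 819 CPM of Snhg15 and 45.9 CPM of Mtln. There the 135 lincRNAs together held 0.428% of the counts, also the highest of 4. In LPS+ET+KU of pool LUL16 the highest were 6.9 CPM of Gm15892, 17 CPM of 9230111E07Rik, 129 CPM of Neat1 and 45 CPM of Pvt1, and the lowest were 0.59 CPM of 1700003M07Rik, 10.8 CPM of 1600020E01Rik and 1.5 CPM of Mir17hg. In other pools, Gm26787 (11.6 CPM) and Gm1976 (17.4 CPM) were highest in LPS+ET+KU of pool LUL15, Platr17 was lowest in LPS+ET of that pool (3.12 CPM), and 6720427I07Rik was highest in LPS+ET of pool LUL17 (12.5 CPM).

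The log2 ratio of heavy polysomes to monosomes differed between LPS+ET and LPS, by the interaction term of the edgeR fit, for D130017N08Rik (-2.69), AI504432 (-1.83), 9530036O11Rik (-1.60), Gm1976 (-1.48), Gm26697 (-1.33) and Gm26745 (0.79).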

How the results depend on the processing

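Counts of lincRNAs called are given for each setting. No share over all genes stands beside them, so they show how the fits differ and not how lincRNAs differ from other genes. Over the whole gradient, LPS+ET against LPS had 16, and 40 with a term per pool (the replicate block that pairs the gradients), 26 with DESeq2, 35 at an adjusted p under 0.05, 8 among genes of 1000 or more counts, 27 without pool LUL16 and 72 without it and with the block. For LPS+ET+KU against LPS+ET the 0 became 13 with the block, 7 with DESeq2, 6 at an adjusted p under 0.05, 10 without pool LUL16 and 52 with both. For LPS+ET+KU against LPS the 15 became 36, 25, 30, 27 and 62 in the same order, 5 among genes of 1000 or more counts and 9 with equal weights per fraction (limma). In monosomes, light and heavy polysomes the block gave 34, 35 and 25 for LPS+ET against LPS and 13, 9 and 1 for LPS+ET+KU against LPS+ET, and without pool LUL16 each of the latter was 1. Light against monosome in LPS had 49, and 19 without a term per gradient. Heavy against monosome in LPS+ET+KU had 97, and 62 with equal weights (limma). The changed ratios in LPS+ET numbered 6, and 1 without a term per gradient, 2 without border fractions and 2 with equal weights. The cause of these shifts was not tested, apart from the fewer genes or gradients that some settings hold.

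Leaving out 1 gradient at a time gave 11 to 19 for LPS+ET against LPS, 0 to 4 for LPS+ET+KU against LPS+ET and 7 to 27 for LPS+ET+KU against LPS. In monosomes, light and heavy polysomes it gave 4 to 9, 9 to 13 and 6 to 12 for LPS+ET against LPS, and 0 to 1, 0 to 0 and 0 to 0 for LPS+ET+KU against LPS+ET. Heavy against monosome gave 81 to 90 in LPS, 81 to 91 in LPS+ET and 87 to 94 in LPS+ET+KU, light against monosome 35 to 39, heavy against light 84 to 87, and the changed ratios 4 to 7 and 0 to 0. No named gene changed direction while called. With the block, 36 of 75 single values gained a call and 0 lost one.

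LincRNAs under 1000 counts, 73 of 135, and libraries under 100000 counts, 12 of 156, limit the precision of single fractions, and in the simulated data of the summed fit 19% of changes of 1 on the log2 scale were recovered.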

Other observations

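The 135 lincRNAs together took 0.403 ± 0.042% of the counts of a gradient with LPS, 0.366 ± 0.0411% with LPS+ET and 0.563 ± 0.075% with LPS+ET+KU (SD, n = 4). Within monosomes their share was 0.76 to 0.827%, 0.609 to 0.688% and 0.779 to 1.09%, within light polysomes 0.417 to 0.64%, 0.464 to 0.616% and 0.493 to 0.982%, and within heavy polysomes 0.185 to 0.257%, 0.193 to 0.222% and 0.186 to 0.287%. In monosomes every LPS+ET gradient lay below every LPS and every LPS+ET+KU gradient. AC025794.1 alone held 150261 of the 692949 counts, and Gm42418, whose site lies opposite an annotated rRNA gene, held 28550. Without both, the shares were 0.316 ± 0.0203%, 0.294 ± 0.0513% and 0.378 ± 0.0415% for LPS, LPS+ET and LPS+ET+KU, and with all 135 and equal weight per fraction they were 0.517 ± 0.0677%, 0.482 ± 0.0193% and 0.606 ± 0.0941%.

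The library of fraction 17, of an LPS gradient of pool LUL16, held 777 counts and 0 of them in the 135 lincRNAs, which allows a share of up to 0.386% (3 counts, counting error only).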
